A study of Mus musculus with 5 samples.

Results

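Neuropeptide precursor genes encode secreted proteins that are cut into short signalling peptides. The 10 genes described here, *Penk*, *Sst*, *Pdyn*, *Npy*, *Cck*, *Tac1*, *Vip*, *Gal*, *Cartpt* and *Nts*, were picked by symbol from the 32286 features counted in each library, and all 10 were present. They were followed in the tumour cells of 5 mouse synovial sarcomas (SyS) profiled by single-cell RNA-seq. Each tumour arose in a mouse carrying the hSS2 allele, from which the human SS18::SSX2 fusion is expressed at the *Rosa26* locus after TATCre protein is injected into the limb at 8 days of life. Every tumour carried the fusion and was harvested at morbidity, no fusion-free tissue was among the samples, and the mice were of a mixed strain (CB57Bl/6-svJ in the methods' spelling), 2 to 6 months old. By label, 2 tumours were biphasic (BP), 1 monophasic (MP), 1 mixed (MP+BP) and 1 part poorly differentiated, part monophasic (PD+MP).

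Peptide precursors enter the regulated secretory pathway of neurons and endocrine cells, where prohormone convertases (*Pcsk1* and *Pcsk2*) cut them, carboxypeptidase E (*Cpe*) trims the ends and the amidating enzyme *Pam* finishes many of them. The products are stored in dense-core vesicles and act on G protein-coupled receptors, such as the opioid, somatostatin and tachykinin receptors. Enkephalins and dynorphins (from *Penk* and *Pdyn*) are opioids, somatostatin (*Sst*) restrains hormone release, neuropeptide Y (*Npy*) accompanies noradrenaline in sympathetic nerves, and substance P (from *Tac1*) is a transmitter of pain fibres.

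Of 51670 called cells, 39559 were kept, and 29394 of these (74.3%) fell in 20 clusters named SyS-like from their markers. The clusters were built without the neuropeptide genes. SyS-like cells numbered 4270 (BP replicate 1), 7695 (BP replicate 2), 5246 (MP), 6981 (MP+BP) and 5202 (PD+MP), with a median of 8864 UMIs (unique molecular identifiers, each 1 captured RNA molecule). The clusters' label was checked against the *EGFP* entry, which was not used in naming. The *EGFP* entry of the reference reached 30.8 to 41.8 CPM (a gene's UMIs scaled to the total of its class, in the usual CPM unit) in the SyS-like cells of the 5 tumours and no more than 2.64 CPM in macrophage-like and endothelial-like cells. In pericyte-like cells it reached at most 7.57 CPM. In fibroblast-like cells it stood at 37.7 CPM in BP replicate 1 (9 cells), 26.6 in MP+BP (21 cells) and 6.16 in PD+MP (124 cells), with no UMI in the 3 cells of the other two, so *EGFP* does not set SyS-like apart from fibroblast-like cells in BP replicate 1 and MP+BP. Many SyS-like clusters came mostly from 1 tumour, so cluster and tumour cannot be fully told apart. Total UMIs per library ran from 89996321 to 118649103, and 128 kept barcodes occurred in more than 1 library. The labels of both BP tumours share a leading number whose meaning was not stated, so they may come from 1 animal, and p-values below measure only the spread between these tumours. Both mixed labels and MP have 1 tumour each, and intervals within 1 tumour cover counting error only.

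The promoters of *Sst* and *Cartpt*, 2 of the genes that later stand out in the same clusters, are shown first, with that of *Npy*, whose UMIs lay elsewhere. Each run holds the 250 bases before the RefSeq start of the gene, 5′ to 3′ on the gene's strand. Capitals mark the full cAMP response element TGACGTCA, searched on both strands, a palindrome that contains the shorter TGACGTC. The *Sst* run is chr16:23890845-23891094 and the *Cartpt* run chr13:99900684-99900933, both on the minus strand. The *Npy* run is chr6:49822460-49822709 on the plus strand, all in GRCm38.p6.
Sst: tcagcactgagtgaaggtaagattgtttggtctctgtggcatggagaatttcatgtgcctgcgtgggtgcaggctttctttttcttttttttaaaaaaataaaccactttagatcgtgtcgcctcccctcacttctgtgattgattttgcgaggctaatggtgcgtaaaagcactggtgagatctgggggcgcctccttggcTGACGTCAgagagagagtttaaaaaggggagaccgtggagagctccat
Cartpt: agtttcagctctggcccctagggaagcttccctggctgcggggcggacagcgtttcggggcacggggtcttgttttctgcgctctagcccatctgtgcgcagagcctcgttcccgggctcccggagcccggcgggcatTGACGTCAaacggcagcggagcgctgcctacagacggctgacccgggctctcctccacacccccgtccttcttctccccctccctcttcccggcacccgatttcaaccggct
Npy: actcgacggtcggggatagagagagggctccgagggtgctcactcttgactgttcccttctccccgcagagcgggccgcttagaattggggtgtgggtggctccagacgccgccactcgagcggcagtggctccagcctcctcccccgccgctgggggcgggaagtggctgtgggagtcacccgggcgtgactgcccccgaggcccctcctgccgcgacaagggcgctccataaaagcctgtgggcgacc
The element began 48 bases before the start in *Sst* and 112 bases before it in *Cartpt*. Of 32851 RefSeq promoters of 300 bases, 588 (1.79%) held TGACGTCA and 1053 (3.21%) held TGACGTC. Among the 10 entries for 9 of the neuropeptide genes (all but *Penk*), TGACGTCA occurred in those of *Sst* and *Cartpt*, and TGACGTC also in that of *Vip*, 79 bases before its start. The entry of *Tac1*, which also had 45.7% of its SyS-like UMIs in those clusters, held neither. *Penk*, concentrated there too, had no entry, and a link of the motif with the clusters was not tested. A match is a description of these letters and was not tested as a binding site.

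The genes lie on 8 chromosomes in the GENCODE vM21 annotation of GRCm38, whose gene identifiers matched those of the files for all 10. *Penk* spans chr4:4133531-4138819 on the minus strand, and the noncoding gene *A830012C17Rik* overlaps it on the other strand. *Sst* spans chr16:23889573-23890958, *Cartpt* chr13:99898489-99901091, *Pdyn* chr2:129686565-129699844, *Cck* chr9:121489824-121495694, *Gal* chr19:3409915-3414544 and *Nts* chr10:102481756-102490486, all on the minus strand. On the plus strand, *Npy* spans chr6:49822710-49829507, *Tac1* chr6:7554879-7565834 and *Vip* chr10:5639218-5647617. No other gene of the annotation overlaps these 9. The GENCODE models of *Sst* and *Cartpt* begin farther upstream than the RefSeq starts used above, inside or beyond the printed runs.

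In SyS-like cells, 8 of the genes had at least 77 UMIs, and *Vip* and *Nts* had 2 and 32. *Penk*, the enkephalin precursor, stood at 8.22 CPM in BP replicate 1, 10.7 in BP replicate 2, 1.86 in MP, 17.1 in the MP+BP tumour and 13.95 in PD+MP. MP was the lowest, and no counting intervals of neighbouring tumours overlapped. *Sst* stood at 14.3 and 98.4 CPM in the BP tumours, 1.12 in MP, 94.1 in the MP+BP tumour and 7.83 in PD+MP. The BP replicates thus lay farther apart for *Sst* than BP replicate 2 did from MP+BP. *Cartpt*, the precursor of the CART peptides of feeding circuits, stood at 10.2 and 16.3 CPM in BP, 0.484 in MP, 22.8 in the MP+BP tumour and 2.03 in PD+MP. Like *Sst*, it was lowest in MP, next lowest in PD+MP and higher in the 3 tumours with BP in the label.

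*Npy* had the reverse order at its upper end. It stood at 29.9 and 33.4 CPM in the BP tumours, 71.7 in MP, 23.0 in the MP+BP tumour and 25.5 in PD+MP. MP was above every other tumour, and no counting intervals overlapped. *Tac1*, the precursor of substance P and neurokinin A, stood at 11.4 and 6.59 CPM in BP, 0.628 in MP, 8.72 in the MP+BP tumour and 0.184 in PD+MP. Here the 3 tumours with BP in the label did not overlap the other two. Counting intervals were 0.463 to 0.832 in MP and 6.08 to 7.13 in BP replicate 2. In MP, 34 of the 48 *Tac1* UMIs came from 1 cell, and in PD+MP 8 of 11. The intervals take UMIs as independent, so they understate the error there. *Gal*, the galanin precursor, stood at 1.14 and 4.80 CPM in BP, 0.588 in MP, 0.620 in the MP+BP tumour and 3.99 in PD+MP, an order that did not follow the labels. A single cell held 100 of the 447 *Gal* UMIs in BP replicate 2, and another 79 of the 238 in PD+MP. The share of SyS-like cells with *Gal* ran only from 0.602 to 1.29% over the tumours.

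The other 4 genes were close to the detection limit. *Pdyn*, the dynorphin precursor, had 35 and 36 UMIs in the BP tumours, 3 in MP and 3 in the MP+BP tumour. In PD+MP 0 of 5202 SyS-like cells had a UMI. At a floor of 3 cells, not an exact interval, this allows a share of cells with a UMI of up to 0.0577%. *Cck*, the cholecystokinin precursor, had 47, 91, 75, 88 and 10 UMIs in BP replicate 1, BP replicate 2, MP, MP+BP and PD+MP, or 0.703, 0.976, 0.981, 1.19 and 0.168 CPM. PD+MP was the lowest, and the counting intervals of BP replicate 2, MP and MP+BP overlapped. In MP, 38 of the 75 *Cck* UMIs came from 1 cell, so its interval understates the error. *Nts*, the neurotensin precursor, had 26 of its 32 UMIs in MP+BP, 22 of them in 1 cell. *Vip*, the precursor of vasoactive intestinal peptide, had 1 UMI in each BP tumour and none in the others.

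**Figure D1:**
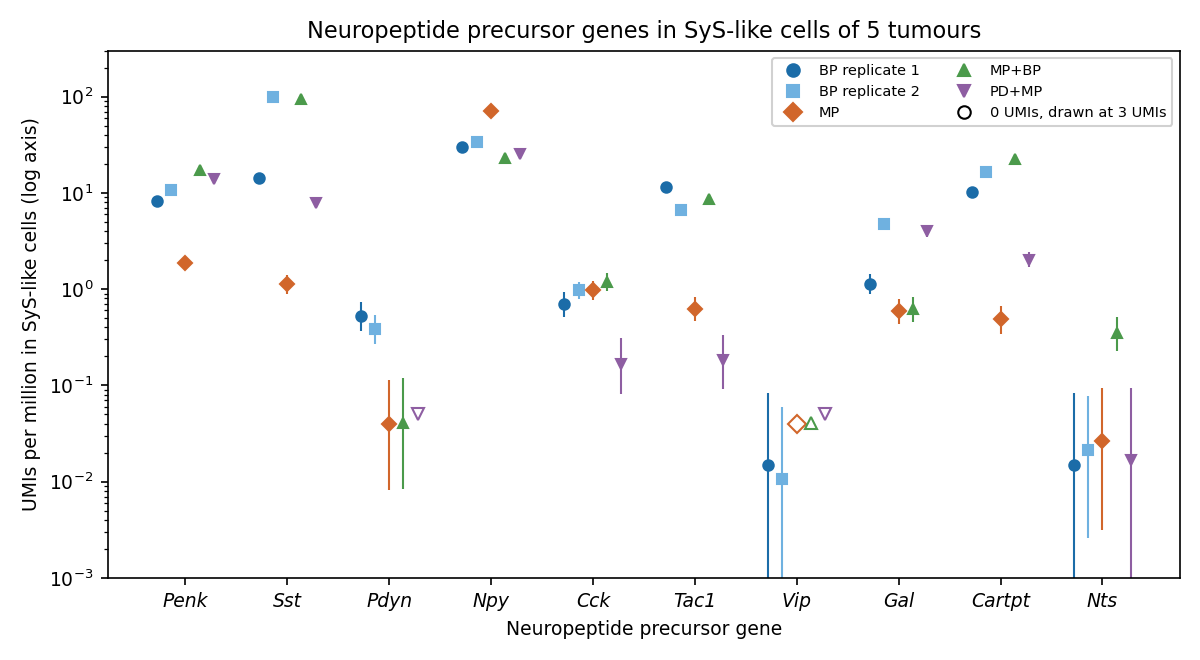
CPM (log axis) of the 10 genes in the SyS-like cells of each of the 5 tumours, 1 symbol per tumour, with exact Poisson 95% intervals that cover counting error only and open symbols where no UMI was found. *Sst* ranged from 1.12 in MP to 98.4 in BP replicate 2, while *Npy* ranged from 23.0 to 71.7 with MP highest.

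The transcripts were carried by a minority of tumour cells. At least 1 UMI of any of the genes was found in 26.9 and 25.4% of SyS-like cells in the BP tumours, 30.04% in MP, 23.95% in the MP+BP tumour and 22.03% in PD+MP, or 25.7% ± 3.04 (SD, n = 5). These shares lay close together although single genes differed widely among tumours. With each cell thinned to 2500 UMIs the shares were 9.30, 13.1, 11.8, 12.8 and 8.28% in the same order, or 11.04% ± 2.14. The unthinned share with any of the genes was 2.47 to 6.71% in endothelial-like cells (median 4585 UMIs) and 2.22 to 6.14% in macrophage-like cells (median 5493 UMIs), so every tumour's SyS-like cells lay above both. In pericyte-like cells it was 5.13 to 17.2%, also below. In fibroblast-like cells it was 44.4% of 9 cells, 100% of 1, 50% of 2, 28.6% of 21 and 20.2% of 124 in the order of tumours above, higher than in SyS-like cells in all but PD+MP, with exact intervals that hold the SyS-like share in each tumour. Cells with UMIs of 2 or more of the genes made up 4.33 and 4.81% of SyS-like cells in BP, 1.30% in MP, 3.87% in the MP+BP tumour and 1.17% in PD+MP.

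*Npy* was found in the most cells. It was present in 17.3 and 11.97% of SyS-like cells in BP, 28.0% in MP, 8.34% in the MP+BP tumour and 18.2% in PD+MP, against 0 to 1.31% of endothelial-like and 0.703 to 3.96% of macrophage-like cells. *Penk* was found in 5.995 and 6.25%, 0.877%, 7.28% and 2.499% of SyS-like cells in the same order of tumours. Its share in endothelial-like cells was at most 0.534%, and in macrophage-like cells at most 0.768%. *Sst* was found in 1.43 and 6.68%, 0.286%, 6.07% and 1.11% of SyS-like cells, and in macrophage-like cells in 0.234 and 2.38%, 0.431%, 2.69% and 0.283%. The *Sst* share in MP was below the macrophage-like share of the same tumour, while its level was above (1.12 against 0.586 CPM, on 86 UMIs in 15 cells and 2 UMIs in 2 cells), so no order is read from it. Thinned to 2500 UMIs, the mean share was 5.96% for *Npy*, 1.96% for *Penk* and 2.22% for *Sst* in SyS-like cells, 0.505, 0.0443 and 0.156% in endothelial-like cells and 0.812, 0.284 and 0.407% in macrophage-like cells. For the rarer genes the mean share over tumours was 1.52% ± 1.22 for *Cartpt*, 1.13% ± 1.03 for *Tac1*, 0.973% ± 0.301 for *Gal*, 0.790% ± 0.374 for *Cck* and 0.254% ± 0.314 for *Pdyn* (SD, n = 5).

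The positive cells differed in how many molecules they held. Of 4655 SyS-like cells with *Npy*, 54.4% held a single UMI and 5.61% held 10 or more. Of 1072 cells with *Sst*, 40.5% held 10 or more and the highest held 415. *Sst* UMIs were concentrated accordingly, with 80.0% of them in the 294 highest cells (1% of SyS-like cells), compared with 37.3% for *Npy* and 63.5% for *Penk*. For *Cartpt* and *Tac1* the highest cell held 203 and 102 UMIs. *Cck* was found with a single UMI in 90.1% of its 243 cells and *Pdyn* in 95.8% of its 72, so at this depth a cell without a UMI cannot be called negative for them.

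Which cell classes hold the genes was addressed by summing UMIs per tumour and class. SyS-like cells held 98.8% of all *Sst* UMIs in kept cells, 99.3% of *Cartpt*, 93.6% of *Penk*, 94.5% of *Npy*, 95.1% of *Cck* and 95.1% of *Pdyn*, beside 84.8% of the UMIs of all genes. *Gal*, at 86.7%, lay near that share. *Tac1* lay below it, with 78.8% in SyS-like cells and 17.2% in pericyte-like cells, which held 1.38% of all UMIs. *Vip* and *Nts* lay mostly in endothelial-like cells, which held 92.9 and 69.8% of their UMIs.

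Against endothelial-like cells of the same tumours, 8 of the 10 genes passed the filter on low counts, 4 were higher in SyS-like cells and 2 lower (*Vip* and *Nts*). A limit on the 2 lower calls is given below. The 4 higher genes had few endothelial-like UMIs (8 for *Penk*, 13 for *Cartpt*, 17 for *Sst* and 26 for *Npy*). They passed the filter mainly through the SyS-like sums, which favours a higher call. A call here means an adjusted p under 0.05 in edgeR's quasi-likelihood test with tumour as a block. Over all 18160 genes tested, 30.1% were called higher and 23.1% lower (53.2% in all), so a call by itself sets no gene apart here. Of these calls 56.6% were higher, and 68.2% without scaling beyond total counts. Endothelial-like levels of *Sst* were 0.417 and 2.51 CPM in BP, 0 in MP, 1.76 in the MP+BP tumour and 0 in PD+MP, below the SyS-like level in each tumour, with a log2 difference of 5.21 ± 0.27 (SE, adjusted p = 4.54e-07). Endothelial-like levels of *Npy* were 0 to 1.95 CPM, and the log2 difference was 4.49 ± 0.31 (adjusted p = 2.63e-06). *Penk* and *Cartpt* were also higher, by 3.99 ± 0.42 (adjusted p = 3.72e-05) and 3.44 ± 0.53 (adjusted p = 0.000443) on the log2 scale. Without clusters 5, 12 and 24, described below, *Cartpt* was no longer called, at 1.15 ± 0.71 (adjusted p = 0.204). Those clusters were picked for high *Sst*, *Penk* and *Cartpt*, so a weaker result for these genes without them follows from the choice.

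*Vip* went the other way. It stood at 2.499 and 1.67 CPM in the endothelial-like cells of BP, 1.75 in MP, 2.94 in the MP+BP tumour and 1.72 in PD+MP, from 39 UMIs in 34 cells. With 2 UMIs in all SyS-like cells, the endothelial-like level was 400-fold higher by the ratio of counts (95% interval 103 to 3417). *Vip* was called lower in SyS-like cells (adjusted p = 4.95e-06), but it could pass the filter only through the endothelial-like sums. A call could thus only go this way and adds nothing to the counts. *Nts* stood at 13.5 and 2.23 CPM in endothelial-like cells of BP, 0.175 in MP, 3.23 in the MP+BP tumour and 5.15 in PD+MP. Its log2 difference was -6.01 ± 0.96 (adjusted p = 0.000604), but 62 of the 88 endothelial-like UMIs came from 1 cell and only 9 cells had any. Outside MP+BP, the SyS-like sums held 1 or 2 *Nts* UMIs, so *Nts* passed the filter mainly through endothelial-like sums. Without MP+BP, *Nts* no longer passed the filter and was not tested.

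*Tac1* differed in sign among tumours. In endothelial-like cells it stood at 4.17 and 0.837 CPM in BP, 10.7 in MP, 1.47 in the MP+BP tumour and 0 in PD+MP, above the SyS-like level in MP and below it in the other 4. The difference over tumours was 0.47 ± 1.07 on the log2 scale (adjusted p = 0.737). Without MP it was 1.85 ± 0.40 and called (adjusted p = 0.00413). *Gal* did not pass the test (-0.70 ± 0.70, adjusted p = 0.434), and *Pdyn* and *Cck* did not pass the filter.

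Against macrophage-like cells, 6 genes were tested, 5 were called higher and none lower, where 36.5% of 17975 genes were called higher and 27.0% lower (63.5% in all). Higher calls made up 57.5% of these, and 77.3% without scaling beyond total counts. *Sst* was 3.59 ± 0.34 higher (adjusted p = 3.51e-06), *Cartpt* 3.95 ± 0.45 (adjusted p = 1.63e-05), *Gal* 2.58 ± 0.53 (adjusted p = 0.00127), *Npy* 2.39 ± 0.65 (adjusted p = 0.00784) and *Cck* 1.82 ± 0.71 (adjusted p = 0.0423), all on the log2 scale. *Cartpt*, *Gal* and *Cck* had 9, 6 and 3 macrophage-like UMIs. These genes passed the filter mainly through the SyS-like sums, which favours a higher call. Macrophage-like levels of *Npy* were 1.11 and 1.91 CPM in BP, 3.81 in MP, 2.82 in the MP+BP tumour and 30.2 in PD+MP. The last was above the SyS-like level of that tumour, and 66 of its 156 UMIs came from 1 cell. *Cck* rested on 3 macrophage-like UMIs against 311, a ratio of 6.18 (95% counting interval 2.09 to 30.1), and its call was lost whichever tumour was left out (without MP+BP it no longer passed the filter). *Penk* was not called (1.45 ± 0.65, adjusted p = 0.0721). Of 57 *Penk* UMIs in the macrophage-like cells of MP+BP, 54 came from 1 cell, and without MP+BP the log2 difference was 2.52 ± 0.53 (adjusted p = 0.0023). Without clusters 5, 12 and 24, *Sst* was no longer called either (0.78 ± 0.41, adjusted p = 0.119), an outcome that the choice of these clusters favours.

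Against stromal cells (pericyte-like and fibroblast-like together), 7 genes were tested, 2 were called higher and 2 lower, where 16.6% of 18104 genes were called higher and 13.2% lower (29.8% in all). Of these calls 55.6% were higher, and 71.8% without scaling beyond total counts. Stromal *Tac1* stood at 41.6 and 38.3 CPM in BP, 105 in MP, 72.7 in the MP+BP tumour and 7.90 in PD+MP, above the SyS-like level of each tumour, with a log2 difference of -3.99 ± 0.84 (adjusted p = 0.00798). Most of it came from pericyte-like cells, which wrap small vessels, where 456 UMIs lay in 115 of 1271 cells. *Npy* (3.34 ± 0.59, adjusted p = 0.00359) and *Cartpt* (3.64 ± 0.64, adjusted p = 0.00342) were higher in SyS-like cells. *Cartpt* had 4 pericyte-like and 0 fibroblast-like UMIs, so the filter favoured a higher call for it. *Cartpt* lost its call without clusters 5, 12 and 24 (1.67 ± 0.92, adjusted p = 0.206), which again the choice of these clusters favours.

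*Penk* was the other gene called lower than in stromal cells, at -0.97 ± 0.31 (adjusted p = 0.0475). Stromal *Penk* stood at 21.2 and 12.8 CPM in BP, 1.09 in MP, 27.4 in the MP+BP tumour and 33.8 in PD+MP, and 100 of its 121 UMIs came from 157 fibroblast-like cells, 124 of them from PD+MP. Set against pericyte-like cells alone, *Penk* was 1.29 ± 0.65 higher in SyS-like cells and not called (adjusted p = 0.145), and its call was lost without any 1 of 4 tumours, MP being the exception. *Sst* (1.94 ± 0.72, adjusted p = 0.0743), *Gal* (-2.68 ± 1.04, adjusted p = 0.0852) and *Cck* (-0.91 ± 0.56, adjusted p = 0.256) were not called. For *Sst* the BP replicate 1 pericyte-like sum of 31 UMIs came from 1 cell, and without that tumour the log2 difference was 3.17 ± 0.42 (adjusted p = 0.00248). Without PD+MP, *Gal* was called lower at -3.48 ± 0.64 (adjusted p = 0.0027).

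**Figure D2:**
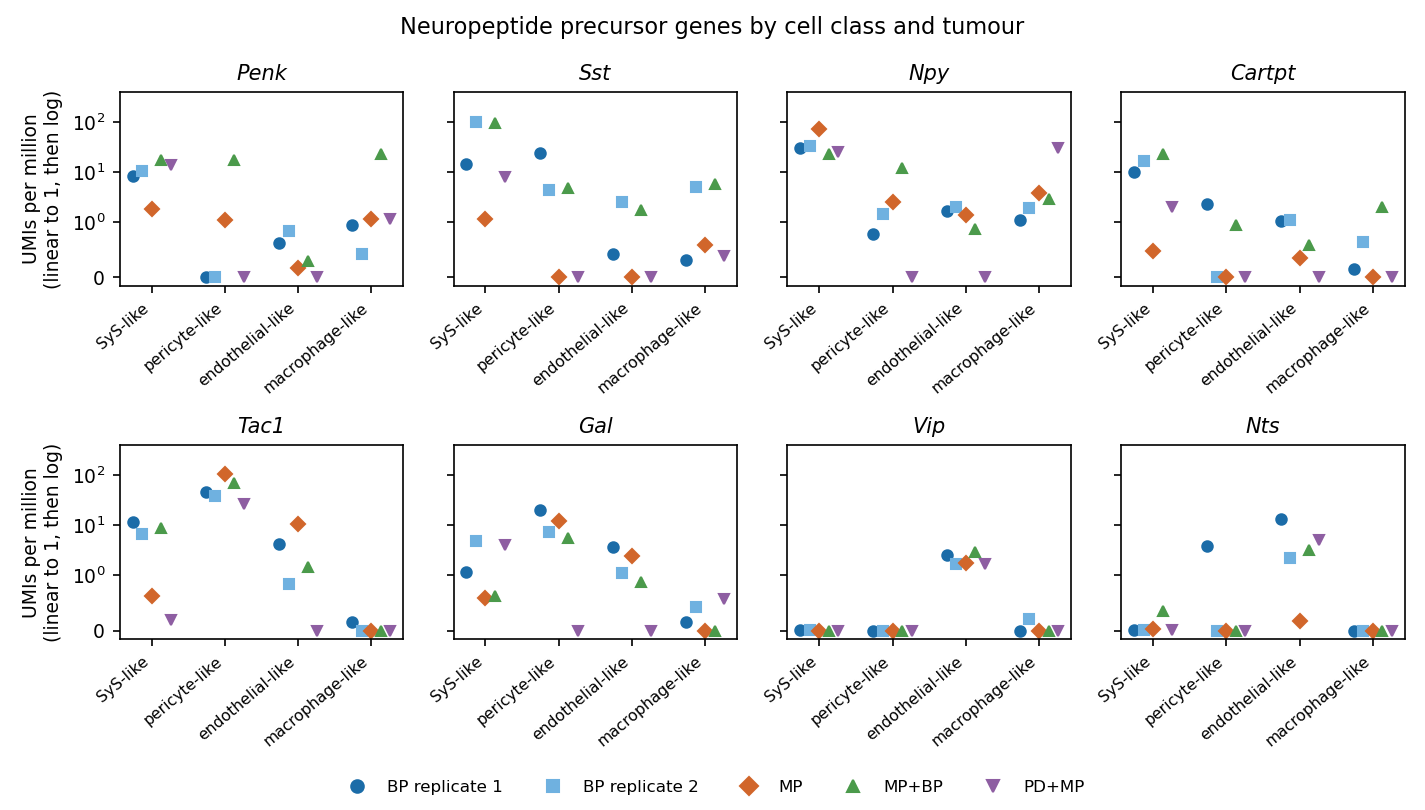
CPM of 8 of the genes in SyS-like, pericyte-like, endothelial-like and macrophage-like cells, 1 symbol per tumour, on an axis that is linear up to 1 and logarithmic above. *Sst*, *Npy* and *Cartpt* were highest in SyS-like cells of most tumours, *Tac1* and *Gal* reached their highest levels in pericyte-like cells, and *Vip* stood between 1.67 and 2.94 in endothelial-like cells and near 0 elsewhere.

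Within the tumour cells, *Penk*, *Sst* and *Cartpt* were concentrated in the same 3 of the 20 SyS-like clusters. The clusters numbered 5, 12 and 24 were singled out for their levels of these genes after the values had been seen. They are described without a test, and the fits above that leave them out are no test of them. They held 3924 cells, 13.3% of the SyS-like cells, which was 5.62 and 10.4% in the BP tumours, 2.54% in MP, 36.2% in the MP+BP tumour and 4.21% in PD+MP. They held 86.9% of all SyS-like *Sst* UMIs, 77.7% of *Cartpt*, 72.4% of *Penk* and 45.7% of *Tac1*, but 4.11% of *Npy* and 3.40% of *Gal*. Cluster 5 (2101 cells, 44.3% from MP+BP) and cluster 24 (402 cells, 55.7% from MP+BP) drew on all 5 tumours, while 96.8% of cluster 12 (1421 cells) came from MP+BP, so that cluster may mark that library.

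The concentration was seen tumour by tumour. The share of a tumour's SyS-like *Sst* UMIs in these clusters was 94.8 and 94.3% in BP, 12.8% in MP, 77.9% in the MP+BP tumour and 71.9% in PD+MP. Inside and outside the clusters *Sst* stood at 349 against 0.778 CPM in BP replicate 1, 1410 against 6.03 in BP replicate 2, 12.1 against 0.993 in MP, 256 against 29.1 in MP+BP and 232 against 2.25 in PD+MP. For *Penk* the share was 57.6 and 54.4% in BP, 46.5% in MP, 80.5% in the MP+BP tumour and 95.8% in PD+MP, and the level in PD+MP was 549 CPM inside against 0.602 outside. For *Cartpt* the share was 84.9 and 94.1% in BP, 29.7% in MP, 59.7% in the MP+BP tumour and 96.7% in PD+MP. MP was the exception for *Sst* and *Cartpt*, on 86 and 37 UMIs in all.

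*Npy* was arranged differently. Inside and outside the same clusters it stood at 18.4 against 30.4 CPM in BP replicate 1, 1.14 against 35.7 in BP replicate 2, 63.6 against 71.8 in MP, 20.7 against 23.9 in MP+BP and 11.03 against 25.8 in PD+MP, lower inside in each tumour. Its highest cluster was number 23, with 461 cells (76.4% from BP replicate 2), where *Npy* reached 264 CPM and 52.5% of cells had a UMI. *Gal* was also highest in cluster 23, at 15.8 CPM. Outside it, *Npy* was spread over the clusters, from 3.80 CPM in cluster 5 to 75.9 in cluster 3.

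The 3 clusters also differed from the rest in collagen and in depth. *Col3a1*, a fibrillar collagen of connective tissue, stood at 910 CPM inside against 10.7 outside, and *Col1a1* at 1526 against 68.6. The 7 fibroblast markers summed to 406 to 1602 CPM in clusters 5, 12 and 24, to 39.8 to 182 in the other 17 SyS-like clusters and to 26826 in the fibroblast-like cluster, and none was at 0 in the 3 clusters. *Col3a1* is 1 of these markers, so the sums largely repeat its level, and the other markers were not summed apart. The 10 SyS markers summed to 1693 to 2695 CPM in the 3 clusters and to 1963 to 6063 in the others. The 8 pericyte markers summed to 47.6 to 78.2 CPM in the 3 clusters, within the range of the others. *EGFP* inside and outside stood at 30.3 against 42.3 CPM in BP replicate 1, 38.98 against 34.7 in BP replicate 2, 41.6 against 31.2 in MP, 38.2 against 27.9 in MP+BP and 24.8 against 35.6 in PD+MP, with no 1 direction. The SyS marker *Sox2* was lower inside in the BP tumours (22.3 against 43.7 and 12.1 against 38.8 CPM), near the outside level in MP+BP (53.3 against 56.5) and higher inside in MP (70.1 against 58.7) and PD+MP (130.2 against 85.5). The median depth was 6141 UMIs inside and 9452.5 outside. The part of collagen-rich cells and of depth in the neuropeptide pattern was not tested.

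**Figure D3:**
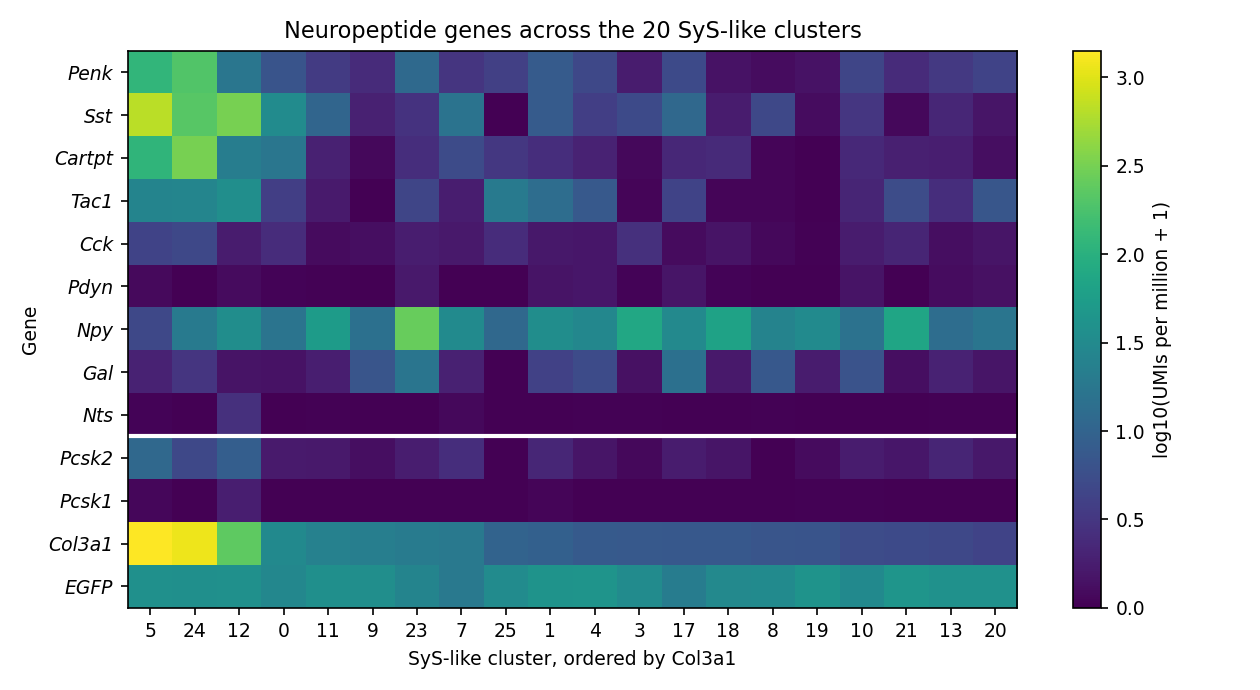
Levels of 9 neuropeptide genes, the convertases *Pcsk2* and *Pcsk1*, *Col3a1* and *EGFP* in the 20 SyS-like clusters (columns, ordered by *Col3a1*), as log10 of CPM plus 1. Clusters 5, 24 and 12 at the left were highest for *Col3a1*, *Sst* and *Penk*, while *Npy* was highest in cluster 23 and *EGFP* ranged from 18.0 to 42.9 CPM over the clusters.

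**Figure D4:**
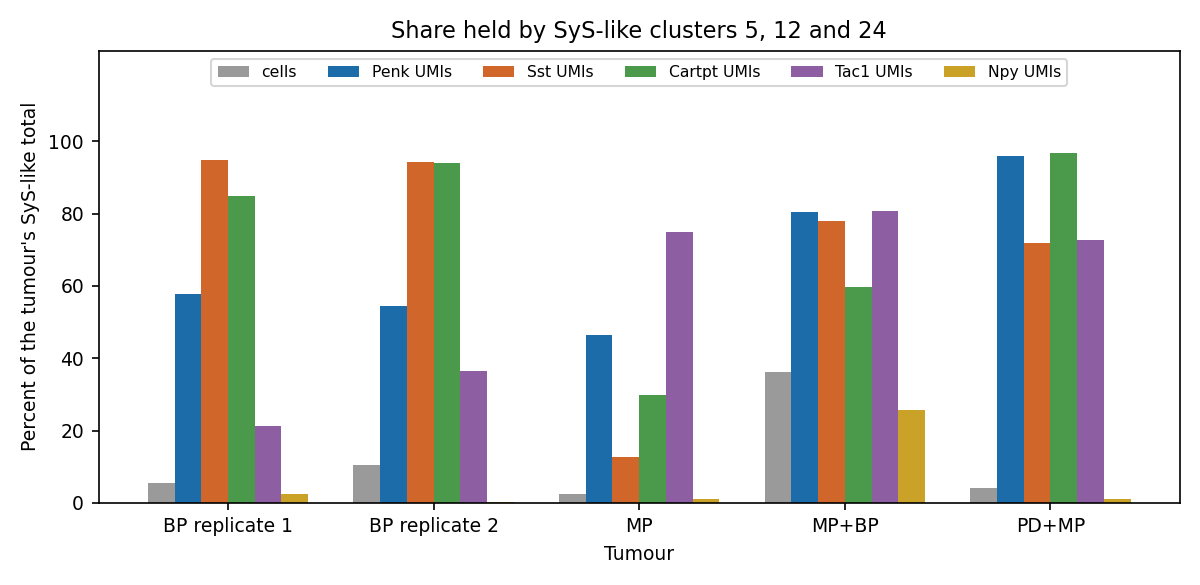
Percent of each tumour's SyS-like cells (grey) and of its SyS-like UMIs of *Penk*, *Sst*, *Cartpt*, *Tac1* and *Npy* that lay in clusters 5, 12 and 24. The cells made up 2.54 to 36.2% of a tumour, the *Sst* UMIs 71.9 to 94.8% outside MP, and the *Npy* UMIs 0.225 to 25.8%.

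Levels across SyS-like sums of 100 or more cells per tumour and cluster are a further description. They use the same clusters, so they are no separate support for the grouping above. Over 37 such sums, which share tumours and clusters, Pearson's r of log2(CPM + 10) was 0.91 between *Penk* and *Cartpt*, 0.80 between *Sst* and *Cartpt*, 0.67 between *Penk* and *Sst* and 0.74 between *Sst* and *Tac1*. *Npy* ran against *Cartpt* (-0.59), *Penk* (-0.48) and *Sst* (-0.46). Of 17128 genes compared, the most alike were *Mkx* (0.96), *Srpx* (0.96) and *Plpp3* (0.95) for *Penk* and *Col4a2* (0.90), *Col6a3* (0.88) and *Col4a1* (0.88) for *Sst*. For *Cartpt* they were *Mxra8* (0.97), *Erg* (0.94) and *4933431K23Rik* (0.94). For *Npy* they were *Cnn3* (0.78), *Mpp6* (0.71) and *Car4* (0.71). The nearest genes were *Wnt10a* (0.89), *Fosl2* (0.85) and *Dusp2* (0.81) for *Tac1*, *Gabra3* (0.82), *Unc5cl* (0.78) and *Kcnip4* (0.76) for *Gal*, and *Omp* (0.82), *Il1r1* (0.81) and *Tmem204* (0.79) for *Cck*.

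Whether the same cells carried several peptides was asked by counting SyS-like cells with UMIs of both genes of a pair, against the number expected from each gene's share within 10 depth bins of the same tumour. Of 20 pairs with at least 5 expected cells, 15 were above expectation and 5 below. *Penk* and *Sst* were found together in 21 cells (3.91 expected) and 104 cells (32.1 expected) in the BP tumours, 1 (0.179) in MP, 55 (35.6) in the MP+BP tumour and 20 (2.33) in PD+MP, or 201 against 74.1 in all, 2.71 times the expected number. *Penk* and *Cartpt* were found together in 88 cells against 36.6 (2.40 times), also above in all 5 tumours. *Sst* and *Cartpt* were found together in 74 cells against 28.2 (2.62 times), above in 4 of 5. Of the cells with *Sst*, 34.4 and 20.2% in BP, 6.67% in MP, 12.97% in the MP+BP tumour and 34.5% in PD+MP also had *Penk*, so in each tumour fewer had both than had *Sst* without *Penk*.

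*Sst* and *Npy* were found together less often than expected, in 77 cells against 130 (0.593 times), below expectation in each tumour. The gap was clear in BP replicate 2 (25 against 58.1) and MP+BP (29 against 45.0) but slight in BP replicate 1 (10 against 11.2) and PD+MP (10 against 10.3). *Npy* and *Cck* were found together in 41 against 49.4 (0.830 times), also below in each, but by few cells, as in BP replicate 1 (10 against 11.4) and MP (11 against 13.4). *Penk* and *Npy* were near expectation over all tumours, with 233 cells against 218 (1.07 times). They were above it in BP replicate 2 (94 against 63.2, 1.49 times) and below it in the other 4 tumours (0.809 to 0.980 times). When the expected number was taken within cluster as well as depth, *Penk* with *Sst* fell to 1.22 times, *Penk* with *Cartpt* to 1.14, *Sst* with *Cartpt* to 1.25 and *Sst* with *Npy* moved to 0.942. These pairs were thus closer to expectation within clusters than across them. *Gal* with *Cartpt* kept its ratio, at 2.17 over depth bins and 2.14 within clusters, on 13 cells. Without BP replicate 2, 9 of 16 pairs were above expectation.

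**Figure D5:**
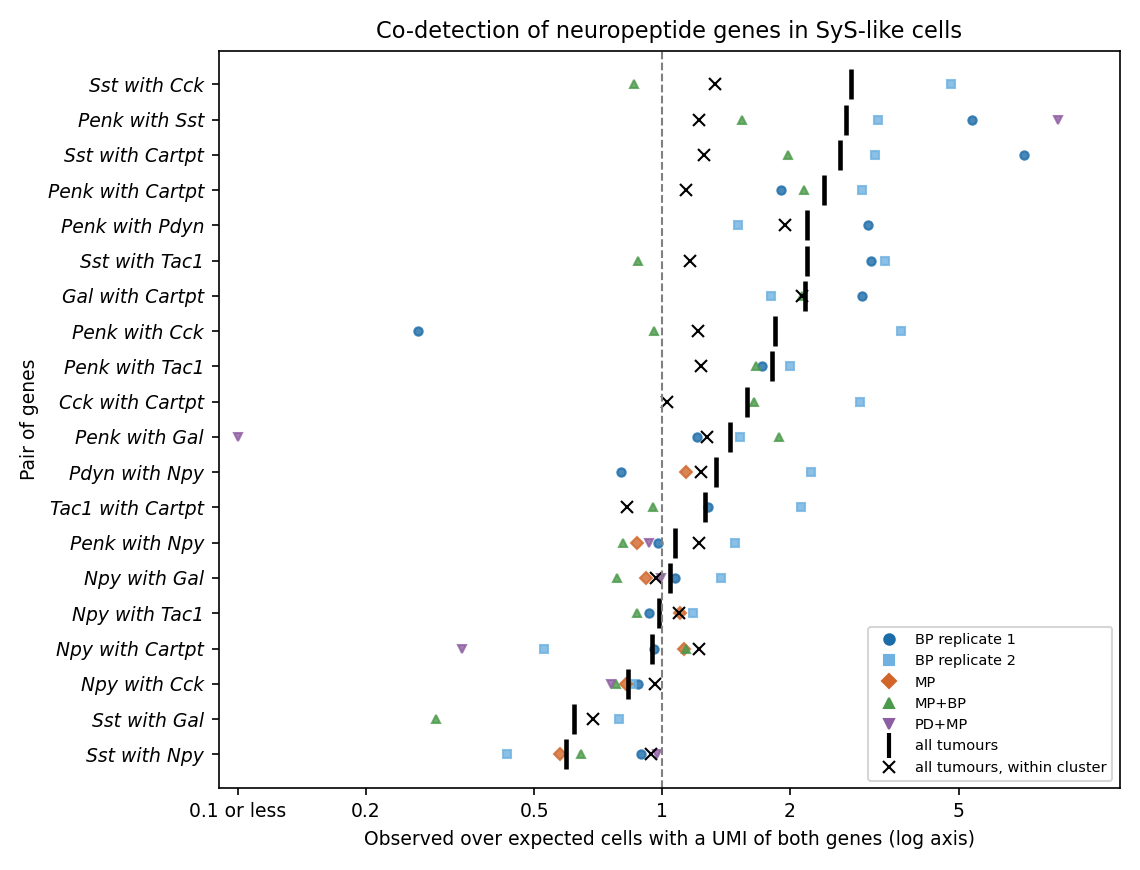
Observed over expected number of SyS-like cells with UMIs of both genes (log axis) for the 20 pairs with at least 5 expected cells, per tumour where at least 1 was expected there, for all tumours together (bars) and with expectation taken within cluster (crosses). *Penk*, *Sst* and *Cartpt* pairs lay at 2.40 to 2.71 in all tumours together and at 1.14 to 1.25 within clusters, and *Sst* with *Npy* lay below 1.

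Histology was addressed by setting the 3 tumours with BP in the label against MP and PD+MP in SyS-like cells. The labels give no sex. In a finer clustering, the Y-chromosome genes *Uty* and *Ddx3y* were among the leading genes of a cluster wholly from PD+MP. That tumour may thus differ in sex from the others, which this comparison cannot tell apart from the label. Of the genes, 8 were tested and none was called by edgeR, where 0 (0%) of 20858 genes were called. At an unadjusted p under 0.05, edgeR had 1065 genes higher and 930 lower, and DESeq2 called 465 higher and 105 lower of 27250 tested. *Tac1* had the lowest adjusted p of the 8, with a log2 difference of 4.36 ± 0.65 (adjusted p = 0.439), higher in each of the 3 tumours than in the other two. *Cartpt* (3.64 ± 0.75, adjusted p = 0.464) and *Sst* (3.88 ± 1.22, adjusted p = 0.464) also had groups that did not overlap. DESeq2 called these 3, with adjusted p of 1.33e-11, 2.75e-05 and 0.00555. With 1 tumour left out, the edgeR log2 difference of *Tac1* ran from 3.77 to 5.49. Leaving out MP or PD+MP leaves 1 tumour on that side, so no call is read from those fits.

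The other genes gave less. *Pdyn* had 74 UMIs against 3 on the 2 sides, a ratio of 14.3 (95% counting interval 4.72 to 71.1), with an adjusted p of 0.514 in edgeR. *Penk* (0.52 ± 0.82, adjusted p = 0.848), *Cck* (0.65 ± 0.76, adjusted p = 0.787), *Gal* (-0.10 ± 1.13, adjusted p = 0.982) and *Npy* (-0.82 ± 0.45, adjusted p = 0.581) did not pass. Leaving out MP turned *Penk* to -0.31 and *Npy* to 0.10. An unnamed cluster of 1303 cells, 99.5% of them from PD+MP, carried 2 SyS markers, and adding it to the SyS-like cells made no call. Beside the label, the summed level of the 10 neuronal genes in SyS-like cells was 317 and 380 CPM in BP, 242 in MP, 459 in the MP+BP tumour and 402 in PD+MP, so the sides overlapped. The summed fibroblast markers were 156 and 204 CPM in BP, 136 in MP, 377 in the MP+BP tumour and 79.2 in PD+MP, and these did not overlap. *Col3a1*, 1 of these markers, itself had 4042 to 15678 SyS-like UMIs in tumours with BP in the label. Those without it had 1297 and 2051. Sums without *Col3a1* were not compared, so the separation is not read as one of the fibroblast markers as a set. The part of the neuronal and fibroblast sums in the label comparison was not tested.

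The enzymes that mature the peptides were only partly present. *Pcsk2* stood at 2.23 and 1.28 CPM in SyS-like cells of BP, 0.536 in MP, 2.34 in the MP+BP tumour and 0.201 in PD+MP, and did not pass the test against any class (adjusted p = 0.904, 0.185 and 0.333 for endothelial-like, macrophage-like and stromal). Inside clusters 5, 12 and 24 it stood at 8.78 CPM against 0.624 outside, higher inside in each tumour, and these clusters held 57.4% of its 495 UMIs. *Pcsk1* had 20 UMIs in all SyS-like cells, 13 of them in the same clusters. Cells with *Penk* also held *Pcsk2* in 54 cases against 22.1 expected (2.44 times, above in 4 of 5 tumours). For *Sst* it was 33 against 13.99 (2.36 times, above in 3 of 5) and for *Tac1* 13 against 6.44 (2.02 times, above in 3 of 5). *Cartpt* was near expectation, at 9 against 8.56 (1.05 times), and so was *Npy*, at 57 against 58.4 (0.976 times). The expected number was not taken within clusters for these pairs.

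*Cpe* stood at 11.5 and 11.4 CPM in BP, 3.23 in MP, 6.52 in the MP+BP tumour and 4.01 in PD+MP, lower than in endothelial-like cells (-2.74 ± 0.24, adjusted p = 1.3e-05) and stromal cells (-5.14 ± 0.47, adjusted p = 0.000117) and higher than in macrophage-like cells (2.02 ± 0.33, adjusted p = 0.00024). *Pam* followed the same signs, at -0.79 ± 0.14 (adjusted p = 0.0013), -1.27 ± 0.18 (adjusted p = 0.0011) and 1.40 ± 0.15 (adjusted p = 7.08e-06). *Pcsk1n*, an inhibitor of *Pcsk1*, was higher than in all 3 classes, by 2.68 ± 0.55 (adjusted p = 0.00273) against endothelial-like, 2.83 ± 0.34 (adjusted p = 2.18e-05) against macrophage-like and 2.86 ± 0.54 (adjusted p = 0.00488) against stromal cells. Of the 11 genes listed for precursor processing, 10 were tested, with 3 higher and 3 lower against endothelial-like, 6 and 2 against macrophage-like and 2 and 3 against stromal cells. Their median log2 difference was 0.21, 1.64 and -0.44, beside 0.16, 0.23 and 0.17 over all genes. *Pcsk5* and *Pcsk6*, constitutively secreted convertases, were 4.75 ± 0.26 and 4.23 ± 0.33 above macrophage-like cells (adjusted p = 4.27e-08 and 6.66e-07).

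The granin and dense-core vesicle genes were called about as often as all genes against macrophage-like cells, at 5 of 8 beside 63.5%. Of 11, 2 were higher and 1 lower among 8 tested against endothelial-like cells, 4 and 1 of 8 against macrophage-like and 1 and 0 of 9 against stromal cells, beside 53.2 and 29.8% of all genes called against the first and last class. *Ptprn2*, a dense-core vesicle membrane protein, was higher against macrophage-like cells by 4.26 ± 0.30 (adjusted p = 3.08e-07), *Cadps* by 5.41 ± 0.78 (adjusted p = 9.85e-05), *Cadps2* by 2.79 ± 0.66 (adjusted p = 0.00337) and *Vgf* by 1.99 ± 0.70 (adjusted p = 0.0277). The granin *Chga* stood at 0.327 to 0.880 CPM and *Chgb* at 0.157 to 0.751 in SyS-like cells.

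Of 25 receptors for the peptides, 9 were tested against endothelial-like cells with 0 higher and 1 lower, 8 against macrophage-like with 3 and 3, and 8 against stromal with 1 and 2. *Npy1r*, a receptor for neuropeptide Y, stood at 0.0523 to 0.310 CPM in SyS-like cells and at 5.75 to 78.8 in stromal cells (-8.23 ± 0.78, adjusted p = 0.000141). *Tacr1*, the substance P receptor, stood at 32.9 and 15.2 CPM in SyS-like cells of BP, 2.82 in MP, 15.4 in the MP+BP tumour and 3.64 in PD+MP. It was 6.21 ± 0.50 above macrophage-like cells (adjusted p = 7.99e-07) and 4.10 ± 0.77 above stromal cells (adjusted p = 0.00466), but -0.20 ± 0.42 from endothelial-like cells (adjusted p = 0.72). The receptors *Oprm1* (-5.61 ± 0.43, adjusted p = 5.82e-07) and *Vipr1* (-3.80 ± 0.29, adjusted p = 5.99e-07) were lower than in macrophage-like cells. *Sstr2*, a somatostatin receptor, was higher than in macrophage-like cells (3.20 ± 0.64, adjusted p = 0.00109) and lower than in stromal cells (-1.67 ± 0.48, adjusted p = 0.0314).

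Among the 8 peptide-degrading enzymes, 7 were tested, with 3 higher and 2 lower against endothelial-like, 4 and 1 against macrophage-like and 2 and 2 against stromal cells. *Mme* (neprilysin, which degrades enkephalins and substance P) was 4.62 ± 0.30 above endothelial-like cells (adjusted p = 1.58e-06) and *Ece2* 3.78 ± 0.39 above (adjusted p = 3.15e-05), while *Ece1* was -2.96 ± 0.18 (adjusted p = 1.31e-06) and *Anpep* against stromal cells -5.09 ± 0.59 (adjusted p = 0.000406). Of 54 other peptide precursor genes, 6 of 23 tested were higher and 5 lower against endothelial-like cells, 8 and 1 of 18 against macrophage-like and 3 and 2 of 23 against stromal cells. *Pthlh* (5.31 ± 0.30, adjusted p = 7.8e-07) and *Prok2* (5.03 ± 0.39, adjusted p = 4.88e-06) were higher than in endothelial-like cells. *Sct* had no macrophage-like UMI and was at least 5.90-fold higher in SyS-like cells at the floor of 3 UMIs over the class (adjusted p = 0.00847), and *Gcg* was lower than in stromal cells (-4.79 ± 1.04, adjusted p = 0.00928). *Sct* could pass the filter only through the SyS-like sums, so its call could only be higher and adds nothing to the counts.

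Most regulators of neuroendocrine fate were higher in SyS-like cells than in each class, with 9, 9 and 8 of 10 called higher and none lower against endothelial-like, macrophage-like and stromal cells, where 30.1, 36.5 and 16.6% of all genes were called higher. This list was chosen with earlier results of these data known, so its counts are a description and no test of the list. *Insm1*, a zinc-finger factor of endocrine cells, stood at 11.02 and 8.004 CPM in BP, 15.5 in MP, 16.4 in the MP+BP tumour and 13.1 in PD+MP, an order unlike that of *Sst* or *Penk*. It had no endothelial-like UMI, which puts SyS-like cells at least 77.1-fold higher at a floor of 3 UMIs over the class (adjusted p = 0.000155), and was 4.45 ± 0.46 above macrophage-like cells (adjusted p = 7.03e-06) and 4.42 ± 0.48 above stromal cells (adjusted p = 0.000296). *Hand2* and *Neurod1* were at least 23.6-fold and 16.7-fold above endothelial-like cells by the same floor (adjusted p = 0.001 and 0.00148). Without an endothelial-like UMI, *Insm1*, *Hand2* and *Neurod1* could pass the filter only through the SyS-like sums. Their calls against endothelial-like cells could thus only be higher and add nothing to the counts. *Rest*, a repressor of neuronal genes, stood at 116 and 93.4 CPM in BP, 80.4 in MP, 80.2 in the MP+BP tumour and 66.3 in PD+MP and was not called against any class (adjusted p = 0.0704, 0.172 and 0.402).

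The 10 neuronal genes showed 8, 9 and 5 of 9 tested higher against endothelial-like, macrophage-like and stromal cells, and 1 lower in the last. They too were chosen with earlier results known, so these counts are a description. *Syt1* (4.61 ± 0.32, adjusted p = 2.57e-07), *Stmn2* (4.24 ± 0.30, adjusted p = 2.64e-07) and *Elavl4* (3.74 ± 0.81, adjusted p = 0.00188) were above macrophage-like cells, and *Prph* was 4.05 ± 0.26 above endothelial-like cells (adjusted p = 1.48e-06). For the BP label edgeR called no gene of these 7 lists, as it called none of all 20858, and the lists cannot be told from other genes there. Cells with both *Insm1* and a peptide gene were near the number their depth gave, at 184 against 191 expected for *Penk*, 122 against 116 for *Sst* and 65 against 72.8 for *Cartpt*. For *Gal* it was 74 against 48.6 (1.52 times), above in 4 of 5 tumours, and for *Npy* 905 against 856 (1.06 times).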

How the data were processed

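Single cells of 5 tumours were profiled with the Chromium 3′ v3.1 kit. Per the file headers, the authors counted UMIs with Cell Ranger 7.2.0 on mm10, and the deposited filtered matrices hold these raw counts. Whether counting used strand was not given in the sources used here. The genes and lists were chosen with earlier results of these data known.

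Cells with at least 750 genes and at most 25% mitochondrial UMIs were kept. Scrublet's automatic threshold marked 0 cells in 2 libraries, so the highest-scoring cells were removed as doublets, 5.35 to 8.27% of a library. Clusters came from 3000 features, 30 principal components, 20 neighbours and Leiden resolution 1 (scanpy 1.11.5, leidenalg 0.10.2), with the genes described left out, and were named "X-like" from at least 3 markers. The naming rule was changed after the first result was seen, and the first rule is an alternative. UMIs were summed per tumour and class, filtered by filterByExpr and tested with edgeR 4.0.16 (TMM, quasi-likelihood test, tumour as block between classes, none for the label), with Benjamini-Hochberg adjustment over all genes. DESeq2 1.42.0, other filters, scalings and left-out tumours were alternatives. All 10 genes are named, with the 3 most alike per gene with enough UMIs, up to 4 called genes per list by size of change, *Pcsk1*, *Pcsk2*, *Cpe* and *Pam* where called, and *Insm1* and *Rest* whatever their values. The uncalled *Pcsk1* and *Pcsk2*, and *Sstr2*, *Chga*, *Chgb*, *Col1a1*, *Col3a1* and *Sox2* were chosen after their values were seen. Of the genes this rule names, 1 is not reported here. On simulated data 73 to 83% of 4-fold and 10 to 23% of 2-fold changes were recovered. Intervals are exact (95%) and cover counting error only.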

Additional observations from a re-analysis of the deposited data

Results flagged for a closer look

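In MP, *Tac1* was lower in SyS-like than in endothelial-like cells, by -10.1 CPM (0.628 against 10.7 CPM), while in BP replicate 1, BP replicate 2 and MP+BP it was higher by 7.24, 5.75 and 7.25 CPM. In PD+MP it stood at 0.184 CPM against 0. The difference between the labels was not tested, since MP is 1 tumour.

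The *EGFP* entry, which no comparison uses, averaged 34.9 CPM in SyS-like cells, above macrophage-like (0.638 to 2.64 CPM) and endothelial-like cells (0 to 1.95 CPM). It reached 37.7 CPM in 9 fibroblast-like cells of BP replicate 1.

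*Npy* stood at 40.9 CPM in the unnamed cluster of 1303 cells, 99.5% of them from PD+MP, with 524 UMIs in 326 cells. *EGFP* stood at 35.4 CPM there.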

How the results depend on the processing

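Of 53 comparisons of the counts and shares with an alternative that left out no tumour, 45 stayed within the limits set (1.5 times, or 1 SD), and 8 moved. With SyS-like sums thinned to the size of the other class, 1 gene was called against endothelial-like and 2 against macrophage-like cells, where only 2 and 3 genes still passed the filter. Over all genes, 3767 of 13071 were then called higher and 3605 lower against endothelial-like cells. Against macrophage-like cells it was 4466 and 4353 of 13227. Without clusters 5, 12 and 24, which were picked for high *Sst*, *Penk* and *Cartpt*, 3 neuropeptide genes were called against macrophage-like cells. Of all 17648 genes tested there, 6439 were called higher and 4796 lower. With doublets kept, 2 neuropeptide genes were called against stromal cells, where 2561 of 18280 genes were called higher and 2500 lower. DESeq2 called 3 neuropeptide genes for the label, where it called 465 higher and 105 lower of 27250 genes tested. Thinned to 2500 and 5000 UMIs, the share of cells with any of the genes was 11.04 and 16.5%.

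Leaving out each tumour gave 5 to 7 calls against endothelial-like, 4 to 5 against macrophage-like and 3 to 4 against stromal cells. Over all genes, 4621 to 5669 were then called higher and 3584 to 4566 lower of 18049 to 19118 against endothelial-like cells. Against macrophage-like cells it was 5814 to 6925 and 4332 to 4914 of 17840 to 18788. Against stromal cells it was 1853 to 3438 and 1809 to 2733 of 18041 to 18602. Leaving out each tumour gave a share of 24.6 to 26.6% and 9 to 15 pairs above expectation (9 without BP replicate 2). For the label, leaving out any tumour with BP in its label gave 0 calls. Leaving out MP or PD+MP left 1 tumour on a side, and no call is read from those fits. Without the tumour as a block, 6, 3 and 3 genes were called against the 3 classes, with *Cck* and *Npy* lost against macrophage-like and *Penk* against stromal cells. In the same order, 5313 of 18160, 6350 of 17975 and 3060 of 18104 genes were then called higher, and 3996, 4664 and 2601 lower. No paired analysis was possible for the label because its sides share fewer than 2 replicate numbers.

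Directions turned for *Tac1* against endothelial-like cells (-0.14 with doublets kept, -0.39 without clusters 5, 12 and 24, -0.20 to 1.85 with a tumour left out), and, without those clusters, for *Penk* against macrophage-like (-0.45) and *Sst* against stromal cells (-0.50). *Penk* turned to 1.29 against pericyte-like cells alone. For the label, with a tumour left out, *Cck* ran from -0.079 to 2.42, *Gal* from -1.46 to 1.90 (0.045 with the unnamed cluster added), *Npy* from -1.35 to 0.10 and *Penk* from -0.31 to 2.64. Lower values of *Sst*, *Penk* and *Cartpt* without clusters 5, 12 and 24 follow from how these clusters were picked. The cause of the turns was not tested. Without scaling beyond total counts, 68.2, 77.3 and 71.8% of calls were higher against endothelial-like, macrophage-like and stromal cells, compared with 56.6, 57.5 and 55.6%, and the median of all genes moved from 0.16, 0.23 and 0.17 to 0.41, 0.85 and 0.42 (log2). A gene with few UMIs cannot be called absent from a cell at this depth.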
